A study of Mus musculus with 4 samples.

Results

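Selenoprotein genes were examined in mouse embryonic fibroblasts (matrix-producing cells cultured from embryos) of the strain labelled C57/BJ6. The group holds 9 genes, namely Selenow, Gpx1, Gpx4, Txnrd1, Txnrd2, Selenop, Selenok, Selenof and Selenos, out of 12393 named genes on the array, and it was defined by taking every probe set annotated to one of these symbols alone, which gave 16 of 22690 probe sets. The 4 groups were Npm1+/- total RNA (Het total), Npm1+/+ total RNA (WT total), Npm1+/- RNA bound to ribosomes (Het polysome) and Npm1+/+ RNA bound to ribosomes (WT polysome). Each was measured on 1 Affymetrix array, so every value stands without a replicate error and every comparison without a test or p-value. The labels name no treatment, age or allele beyond these, and do not say how many embryos or cultures stand behind an array. By its title and design the series asks whether loss of Npm1, which encodes the nucleolar protein nucleophosmin, shifts the RNAs that ribosomes hold.

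Selenoproteins carry selenocysteine, the selenium analogue of cysteine, usually in the active site of a redox enzyme. Their mRNAs spell it with UGA, normally a stop codon, and a stem-loop in the untranslated tail of the mRNA recruits the SECIS-binding protein and a dedicated elongation factor, so that the ribosome inserts selenocysteine instead of ending the chain. When the UGA is read as a stop, some of these mRNAs can be destroyed by nonsense-mediated decay. The mRNAs of Gpx1 and Selenow are known for their sensitivity to selenium supply, whereas those of Gpx4 and Txnrd1 are known as more stable, and a ribose-methylated form of the selenocysteine tRNA is needed for the synthesis of some members, Gpx1 among them. In fibroblasts the family serves peroxide removal, thioredoxin reduction and the handling of misfolded proteins in the endoplasmic reticulum (ER).

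The deposited values are on the log2 scale, their medians lay between 7.47 and 7.59 on the 4 arrays, and differences between arrays are given as log2 values. Npm1, which should check the genotype labels, did not follow them: its brighter probe set read 11.96 on the Het total array and 11.91 on the WT total array, and 12.84 on the Het polysome array and 12.93 on the WT polysome array. No source used here gives the position of its probe sets relative to the alteration. All directions are therefore stated between arrays by their label. All 12 fibroblast markers read at or above the floor on every array (the floor is 7.53, the median of all values). Of 14 macrophage markers, 3 reached the floor on the Het total array and 3 on the WT total array, against 9 on the Het polysome array and 7 on the WT polysome array. All 9 selenoprotein genes reached the floor on at least 1 array. As a gauge of the spread between probe sets, the disagreement between the 2 brightest probe sets of a gene was taken over 2700 genes. For the difference between genotype labels its SD came to 0.32 for total and 0.28 for polysome RNA. Both probe sets are read on the same arrays, so this SD does not measure the spread between arrays or cultures.

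Selenow, which encodes selenoprotein W, a small protein with a thioredoxin-like fold that is abundant in muscle, differed most of the 9 genes between the genotype labels and was lower in the Het-labelled RNA. Its brighter probe set read 9.87 on the Het total array against 11.87 on the WT total array, and 10.14 on the Het polysome array against 12.26 on the WT polysome array. Its other probe set read 8.68 against 10.85 in total RNA and 8.90 against 11.17 in polysome RNA, with Het first. Both probe sets thus read far lower on the Het array than on the WT array of the same RNA. The differences were -2.0 in total RNA (4.0-fold lower) and -2.12 in polysome RNA (4.34-fold lower), and -2.17 and -2.26 at the other probe set, several times the spread between probe sets of a gene. Among the 12393 named genes Selenow stood at rank 3 from the lowest in total RNA, between Rian and Neat1, and at rank 2 in polysome RNA, between Gas5 and the dim Gt(ROSA)26Sor. The genes were chosen with this difference known, so it is given as a description.

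**Figure D1:**
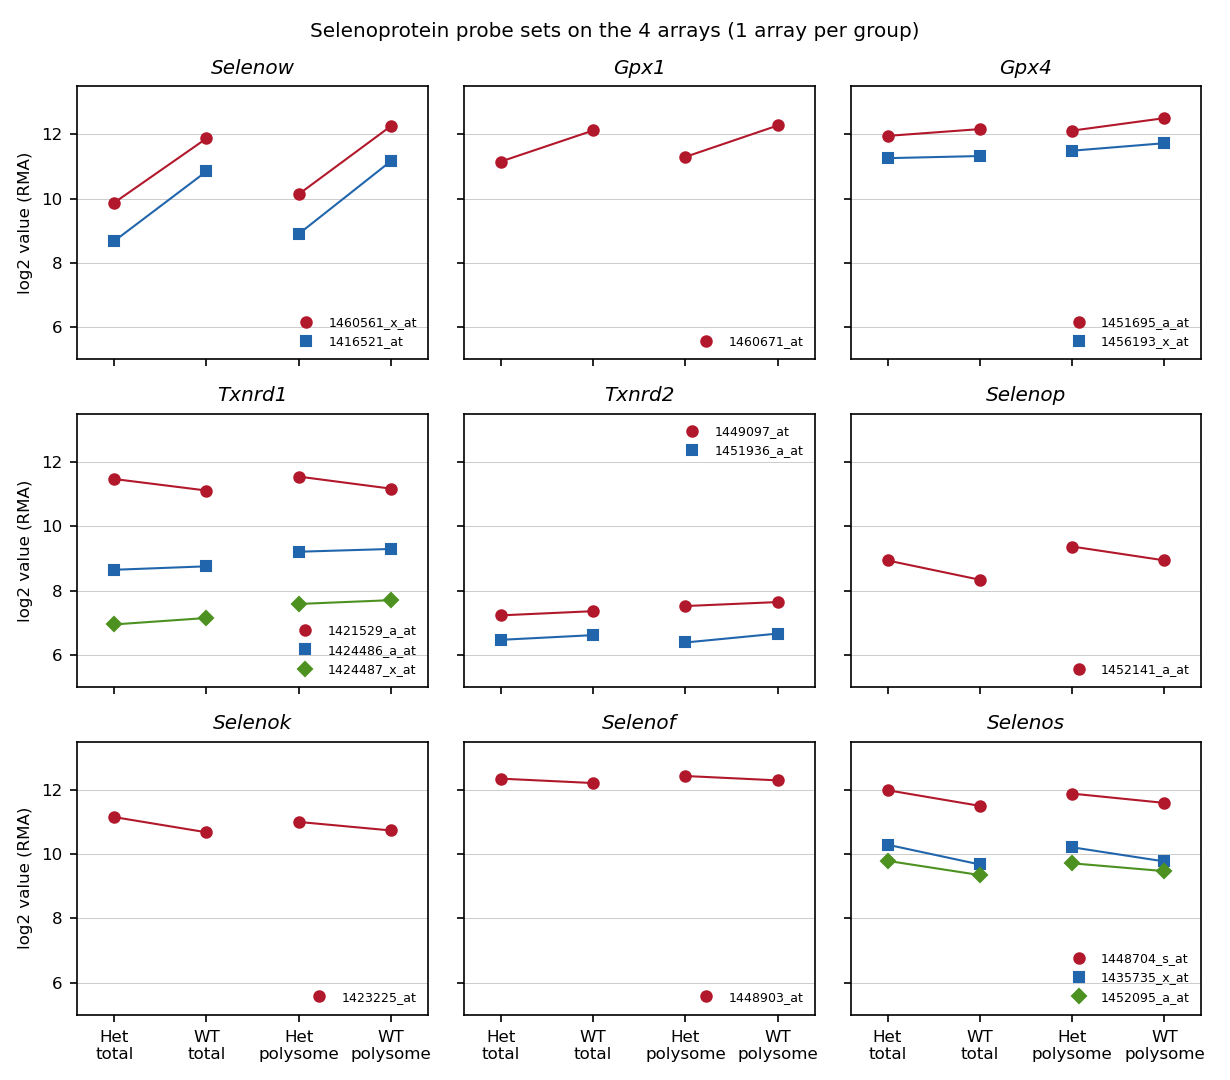
Log2 value (vertical axis) of each of the 16 probe sets on the Het total, WT total, Het polysome and WT polysome array, 1 panel per gene; each point is 1 array and lines join the Het and the WT array of the same RNA. Selenow and Gpx1 slope upward towards the WT arrays in both RNAs, Selenop, Selenok and Selenos slope downward, Selenof slightly so, and the Txnrd1 probe sets slope in different directions.

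The glutathione peroxidases use glutathione to reduce peroxides. Gpx1, the abundant cytosolic form, was second to Selenow among the 9 genes, with 11.15 on the Het total array against 12.12 on the WT total array, and 11.30 on the Het polysome array against 12.27 on the WT polysome array. Its single probe set was therefore lower on both Het arrays by -0.96 and -0.98, which is 1.95-fold and 1.97-fold lower and just short of 2-fold. With quantile normalisation of the arrays these differences became -1.06 and -1.01, and with a level-dependent trend subtracted -1.11 and -1.07, so that the 2-fold size was passed in both RNAs. Gpx4, which reduces lipid peroxides within membranes and guards cells against ferroptosis, was much closer between the labels. It read 11.95 on the Het total array against 12.16 on the WT total array, and 12.11 on the Het polysome array against 12.50 on the WT polysome array. The differences of -0.21 and -0.39 had the sign of Gpx1 but a far smaller size, and those of the other Gpx4 probe set were -0.07 and -0.23.

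The thioredoxin reductases pass electrons from NADPH to thioredoxin, Txnrd1 in the cytosol and Txnrd2 in mitochondria. For Txnrd1 the brightest of 3 probe sets read 11.47 on the Het total array against 11.11 on the WT total array, and 11.55 on the Het polysome array against 11.17 on the WT polysome array, differences of 0.36 and 0.38. The other probe sets, both dimmer, went the opposite way, with -0.11 and -0.20 in total RNA and -0.09 and -0.12 in polysome RNA. The gene therefore has no settled direction between the labels, and the mean of its probe sets gave 0.02 and 0.06. Txnrd2 was dim, at 7.23 on the Het total array against 7.36 on the WT total array and 7.52 on the Het polysome array against 7.65 on the WT polysome array. Its differences of -0.13 and -0.12 lay within the spread between probe sets.

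Selenop encodes selenoprotein P, a secreted carrier that holds many selenocysteines and brings selenium from the liver to other tissues. It had the highest difference of the 9 genes, with 8.94 on the Het total array against 8.34 on the WT total array, and 9.37 on the Het polysome array against 8.94 on the WT polysome array. Both Het arrays were higher than the WT array of the same RNA, by 0.60 (1.52-fold) and 0.43 (1.35-fold). The level on the Het total array was close to that on the WT polysome array, so the genotype labels did not separate all 4 arrays. Most macrophage markers lay the same way: 14 of 14 were above 0 in total RNA and 11 of 14 in polysome RNA. The highest were C1qc at 0.71 in both RNAs and Lyz2 at 0.61 and 0.64. C1qc reached the floor only on the Het polysome array. In total RNA C1qb and Csf1r were at 0.08 and Adgre1 at 0.01. In polysome RNA Csf1r (-0.19), Adgre1 (-0.07) and Laptm5 (-0.04) were below 0. Of all named genes, 51.7% were above 0 in total RNA and 52.9% in polysome RNA. The summed level of the macrophage markers on the linear scale was 1663 on the Het total array against 1373 on the WT total array. In polysome RNA it was 4178 on the Het array against 3196 on the WT array. The part of these cells in the Selenop difference was not tested, and more cells of a type cannot be told apart from more RNA per cell.

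The remaining members reside in the ER. Selenok and Selenos are membrane proteins that bind the Derlin and VCP machinery which pulls misfolded proteins out of the ER, and Selenof is a luminal protein that binds the glycoprotein folding sensor UGGT. Selenok read 11.15 on the Het total array against 10.68 on the WT total array, and 11.00 on the Het polysome array against 10.74 on the WT polysome array, differences of 0.47 and 0.27. Selenos read 11.99 on the Het total array against 11.50 on the WT total array, and 11.88 on the Het polysome array against 11.59 on the WT polysome array, differences of 0.49 and 0.29. In both genes the Het array read higher than the WT array of the same RNA. The other Selenos probe sets gave 0.61 and 0.44 in total RNA and 0.44 and 0.24 in polysome RNA. Selenof was nearly level, at 12.35 on the Het total array against 12.21 on the WT total array and 12.43 on the Het polysome array against 12.29 on the WT polysome array, a difference of 0.14 in both.

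Set beside the rest of the group, Selenow lay 2.25 below the median of the other 8 genes in total RNA and 2.32 below it in polysome RNA. Those 8 had medians of 0.25 and 0.20, with Gpx1 the lowest and Selenop the highest in both RNAs, while the median of the 7179 named genes at or above the floor was 0.19 and 0.11, and that of all 12393 was 0.02 in both. Selenow was 1.03 below Gpx1 in total RNA and 1.14 below it in polysome RNA. At 2-fold, 1 of the 9 genes was lower and 0 were higher in total RNA, where 0.88% of all named genes were lower and 0.161% higher. In polysome RNA the counts were again 1 and 0, against 0.71% and 0.0565% of all named genes. Among named genes at or above the floor, 1.49% were lower and 0.237% higher in total RNA, and 1.17% and 0.0836% in polysome RNA. Since Selenow was the reason for the choice of the group, these shares are given beside the count without a reading. The total and polysome comparisons share no array, but the labels do not say whether 1 culture gave both arrays of a genotype label.

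**Figure D2:**
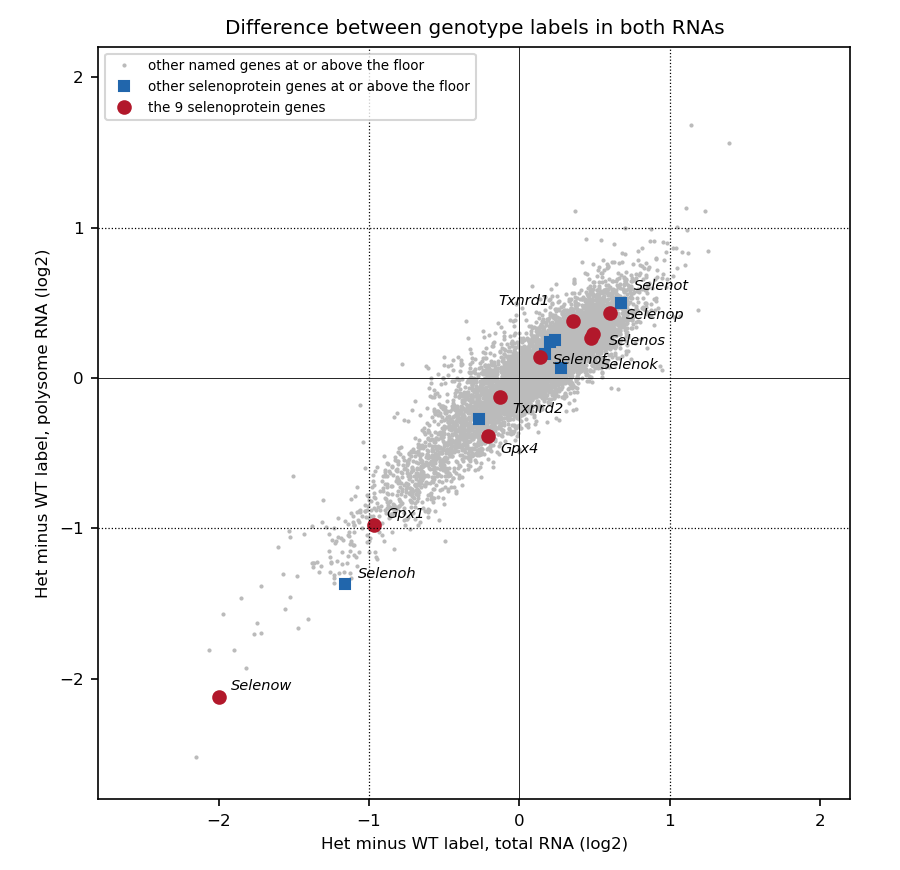
Het minus WT label in total RNA (horizontal) and in polysome RNA (vertical), log2, 1 point per gene; grey points are other named genes at or above the floor, red circles the 9 selenoprotein genes, blue squares other selenoprotein genes at or above the floor, and dotted lines mark 2-fold. Selenow (-2.0 and -2.12) lies near the lower left corner with Selenoh and Gpx1 above it, and the other members sit in the body of the cloud.

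The family was widened to the other mouse selenoprotein genes, of which 12 of 15 listed were on the array and 7 reached the floor. Selenoh, which encodes a nuclear and nucleolar DNA-binding selenoprotein with a thioredoxin-like fold, was the other gene past 2-fold. It read 8.56 on the Het total array against 9.72 on the WT total array, and 8.72 on the Het polysome array against 10.10 on the WT polysome array. Its single probe set read lower on the Het array in both RNAs. The differences were -1.16 (2.24-fold lower) in total RNA and -1.37 (2.59-fold lower) in polysome RNA. Selenot, an ER membrane selenoprotein of the same fold, was at the opposite end, with 11.77 on the Het total array against 11.10 on the WT total array, and 11.78 on the Het polysome array against 11.28 on the WT polysome array, differences of 0.68 and 0.50. Thus Selenow, Selenoh and Selenot, all with a thioredoxin-like fold, did not share a direction. Msrb1, a methionine sulfoxide reductase, differed by 0.24 and 0.25. Selenom, an ER protein related to Selenof, differed by -0.27 in both RNAs. Gpx3, the secreted peroxidase, was at 0.28 and 0.06, Selenon, an ER calcium regulator, at 0.17 and 0.16, and Sephs2, which makes selenophosphate and is itself a selenoprotein, at 0.20 and 0.24. Of the 16 family genes at or above the floor, 2 were at least 2-fold lower and 0 higher in each RNA, with medians of 0.19 and 0.15. Among all named genes at or above the floor, 1.49% were lower and 0.237% higher in total RNA, and 1.17% and 0.0836% in polysome RNA. Selenow, for which the group was chosen, is 1 of the 2, so this count is given without a reading. The thyroid hormone deiodinase genes Dio1 and Dio2, the intestinal peroxidase gene Gpx2, Txnrd3 and Selenov stayed below the floor on every array, with differences between -0.41 and 0.02 at their brightest probe sets.

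No gene of the machinery that makes and inserts selenocysteine was past 2-fold. At this size 0.88% of all named genes were lower and 0.161% higher in total RNA, and 0.71% and 0.0565% in polysome RNA. Of 17 listed genes 12 were on the array and 8 reached the floor, with medians of 0.18 in total RNA and 0.14 in polysome RNA. By the brightest probe set, the largest difference in total RNA was that of Scly, the lyase that recovers selenium from selenocysteine, with 8.31 on the Het total array against 7.71 on the WT total array (0.60), and 0.34 in polysome RNA. Secisbp2l, a relative of the SECIS-binding protein, was at 0.33 and 0.36, above Scly in polysome RNA, and at 0.75 and 0.73 at its dimmer probe set. The elongation factor gene Eefsec was at 0.03 and -0.24. Nonsense-mediated decay factors, of which 4 of 14 listed reached the floor, were at 0.48 and 0.27 (Rbm8a, a core protein of the exon junction complex), -0.22 and -0.27 (Upf2), 0.22 and 0.25 (Smg5) and 0.09 and 0.12 (Casc3). Upf1, the helicase of this pathway, was below the floor at -0.45 and -0.55.

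Partners that work with the redox members are 16 thioredoxin, peroxiredoxin and glutathione genes on the array, all at or above the floor. Of these 0 passed 2-fold in either RNA. Among all named genes at or above the floor, 1.49% were 2-fold lower and 0.237% higher in total RNA, and 1.17% and 0.0836% in polysome RNA. Of the 16, 13 were above 0 in total RNA (median 0.32) and 12 in polysome RNA (median 0.22). Of all named genes at or above the floor, 66.1% were above 0 in total RNA and 62.9% in polysome RNA. Prdx3, the mitochondrial peroxiredoxin that depends on the thioredoxin served by Txnrd2, was at 0.63 and 0.36, and Gclm, a subunit of the enzyme that starts glutathione synthesis, at 0.63 and 0.58. The list of cysteine relatives holds redox genes of similar function that use cysteine and not selenocysteine. Of these, 5 reached the floor, all above 0, with medians of 0.49 and 0.30. The highest was the methionine sulfoxide reductase gene Msra at 0.68 and 0.49. These medians compare with 0.19 and 0.11 for all genes at or above the floor. In the NRF2 system, the transcription programme for oxidative stress to which Txnrd1 belongs, 14 genes reached the floor with medians of 0.26 and 0.14. Its only gene past 2-fold was Fth1, the ferritin heavy chain that stores iron, at 12.15 on the Het total array against 13.41 on the WT total array (-1.26) and 12.22 on the Het polysome array against 13.46 on the WT polysome array (-1.23); its other probe set gave -1.25 and -1.42. Nfe2l2, which encodes NRF2, was at 0.41 and 0.37. ER partners of Selenok, Selenos and Selenof had medians of -0.03 and -0.16 over 11 genes at or above the floor. Vcp, the ATPase that Selenos recruits, was at -0.76 and -0.74, the opposite sign to Selenos. The Derlin genes Derl1 and Derl2 had the sign of Selenos and Selenok, at 0.40 and 0.41 and at 0.39 and 0.16. Derl3, below the floor, was at -0.16 and 0.15. Uggt2, a UGGT family gene, was at -0.68 and -0.60, but it reached the floor only on the WT total array (7.66). Its polysome values, 6.12 on the Het and 6.72 on the WT array, were both below the floor. The ER lectin genes Erlec1 and Os9 were at 0.48 and 0.31 and at -0.47 and -0.50.

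**Figure D3:**
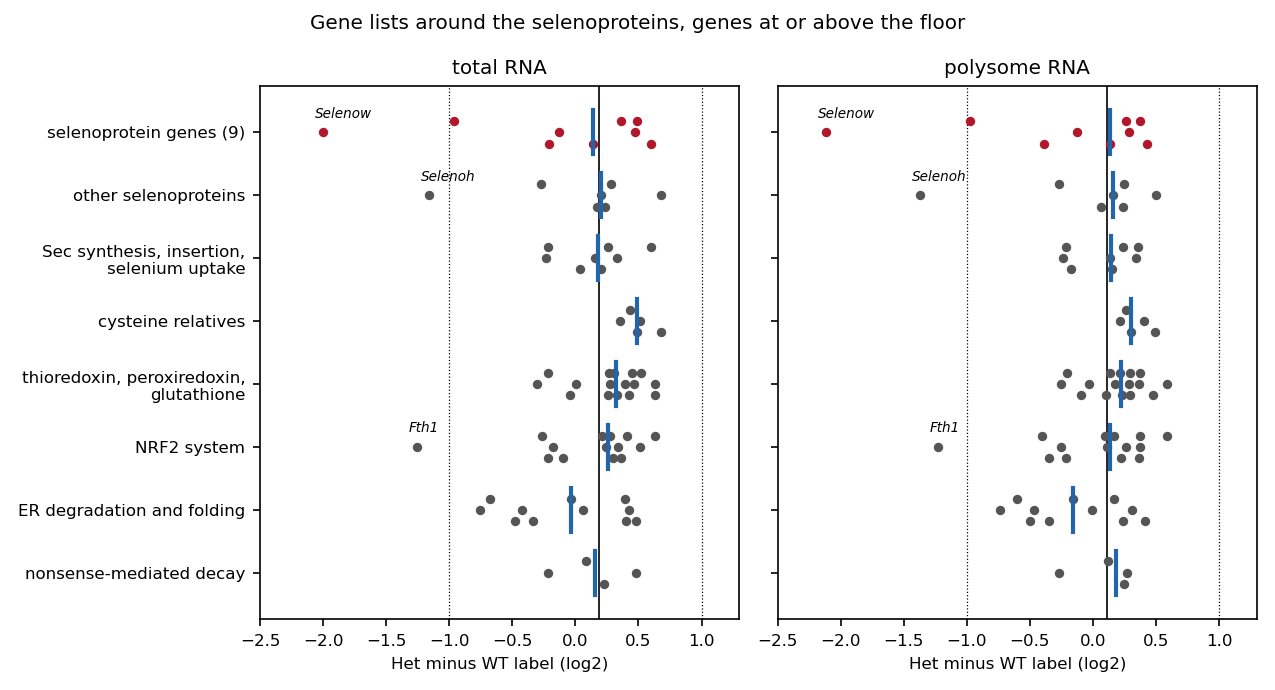
Het minus WT label (horizontal axis, log2) in total RNA and in polysome RNA for genes at or above the floor in 8 lists; each point is 1 gene, blue bars are list medians, the black line is the median of all named genes at or above the floor and dotted lines mark 2-fold. Selenow, Selenoh and Fth1 are the genes past 2-fold, and the cysteine relatives lie to the right of the median gene.

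The genes whose pattern over the 4 arrays was most like that of Selenow were sought by Euclidean distance between profiles centred on their own mean, among named genes at or above the floor. The nearest 5 were Snhg8 (distance 0.21), Snhg6 (0.30), Gas5 (0.30), Rian (0.32) and Tnc (0.34). The first 4 are non-coding RNAs whose genes host small nucleolar RNAs, and Tnc encodes the matrix protein tenascin C. Snhg8 read 8.40 on the Het total array against 10.21 on the WT total array, and 8.56 on the Het polysome array against 10.49 on the WT polysome array. Within the selenoprotein family Selenoh was nearest, at rank 21 (distance 0.80), followed by Gpx1 at rank 96 (1.10) and Gpx4 at rank 927 (1.76). A likeness over 4 arrays is a description, with 1 array per group behind each point.

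Because Selenow, Gpx1 and Selenoh were lower together, their promoter windows are shown, with that of Selenos, which went the other way. Each runs from 250 bases before to 50 after the annotated start, as given by RefSeq for GRCm38.p6, 5′ to 3′ on the strand of the gene. Capitals mark the GC box GGGCGG, the CCAAT box CCAAT and the core of the metal response element (TGCGCNC or TGCACNC), each on either strand. The windows are chr7:15922322-15922621 (minus strand) for Selenow, chr9:108338830-108339129 (plus strand) for Gpx1, chr2:84670659-84670958 (minus strand) for Selenoh and chr7:66079399-66079698 (plus strand) for Selenos.
Selenow: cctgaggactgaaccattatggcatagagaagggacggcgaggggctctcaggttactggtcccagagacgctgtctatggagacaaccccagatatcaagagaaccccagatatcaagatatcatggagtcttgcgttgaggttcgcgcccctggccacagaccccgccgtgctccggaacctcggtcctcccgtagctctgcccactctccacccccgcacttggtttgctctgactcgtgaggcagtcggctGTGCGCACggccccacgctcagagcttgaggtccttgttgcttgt
Gpx1: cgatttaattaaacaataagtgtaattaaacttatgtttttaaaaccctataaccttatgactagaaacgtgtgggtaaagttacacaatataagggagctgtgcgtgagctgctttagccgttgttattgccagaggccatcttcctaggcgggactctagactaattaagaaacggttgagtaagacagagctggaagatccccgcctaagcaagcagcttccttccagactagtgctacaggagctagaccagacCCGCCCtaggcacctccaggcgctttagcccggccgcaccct
Selenoh: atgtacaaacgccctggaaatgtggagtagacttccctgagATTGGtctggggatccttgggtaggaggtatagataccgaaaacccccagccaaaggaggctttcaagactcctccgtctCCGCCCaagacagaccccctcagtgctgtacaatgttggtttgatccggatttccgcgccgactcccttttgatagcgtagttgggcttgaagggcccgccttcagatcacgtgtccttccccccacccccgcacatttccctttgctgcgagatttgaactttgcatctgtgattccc
Selenos: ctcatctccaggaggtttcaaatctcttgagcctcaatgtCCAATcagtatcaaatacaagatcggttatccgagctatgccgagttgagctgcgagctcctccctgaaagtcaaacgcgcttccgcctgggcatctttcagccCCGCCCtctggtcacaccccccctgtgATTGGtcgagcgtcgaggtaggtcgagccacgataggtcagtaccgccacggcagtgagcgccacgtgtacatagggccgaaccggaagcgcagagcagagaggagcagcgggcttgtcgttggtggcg
The Selenow window holds 2 overlapping matches to the metal response element core, 1 on each strand, in the stretch GTGCGCAC after the annotated start. A metal response element is known in the rat Selenow promoter, and whether these matches correspond to it was not tested. The 9 genes have 16 windows, since Gpx4 has 4 starts and Txnrd1 and Selenop have 3 each. The metal response element core was found in 2 of the 16, those of Selenow and Txnrd2, and in 25.7% of 32851 promoter windows of the same length. The GC box was found in 9 of the 16, those of Gpx1 and Selenos included and Selenow not, and in 35.7% of all windows. The CCAAT box was found in 7 of the 16, against 37.4% of all windows; Selenos holds 2, Selenoh 1, and Selenow and Gpx1 none. Selenoh and Selenos each hold 1 E-box, CACGTG, which occurs in 7.15% of all windows. The core of the antioxidant response element, TGANNNNGC on either strand, was found in 3 of the 16, of Txnrd1 and Selenok, and in 41.3% of all windows, and the TATA box TATAAA, also on either strand, in 1 of the 16, of Selenop, against 13.6%. None of these motifs stands in all 3 windows of Selenow, Gpx1 and Selenoh, which describes these letters only.

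Between the fraction labels 0 of the 9 selenoprotein genes passed 2-fold in either direction under either genotype label. At this size 0.412% of all named genes were higher and 0.355% lower in polysome RNA under the Het label, and 0.476% and 0.379% under the WT label. Among those at or above the floor the shares were 0.404% and 0.362% under the Het label and 0.529% and 0.39% under the WT label. Selenow was 0.27 higher in polysome than in total RNA under the Het label (10.14 against 9.87) and 0.39 higher under the WT label (12.26 against 11.87). The Selenow signal was thus slightly higher on the polysome array than on the total array under both labels, beside a median of 0.07 and 0.14 over genes at or above the floor. The other 8 had medians of 0.11 under the Het label and 0.12 under the WT label, and lay from -0.15 (Selenok) to 0.43 (Selenop) and from 0.06 (Selenok) to 0.60 (Selenop).

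Selenop was the highest of the 9 in both comparisons, with 9.37 on the Het polysome array against 8.94 on the Het total array and 8.94 on the WT polysome array against 8.34 on the WT total array. Of the macrophage markers, 11 of 14 were above 0 under the Het label and 13 of 14 under the WT label. Of all named genes, 58.6% were above 0 under the Het label and 62.6% under the WT label. The summed marker levels given above were higher on both polysome arrays than on the total arrays. C1qb, the marker with the largest difference, read 9.03 against 6.06 (Het label) and 8.42 against 5.98 (WT label), polysome first. Csf1r was at -0.22 and 0.05, and Ptprc, near the lower end of all values, at -0.32 and -0.21. The part of these cells in this difference was not tested either.

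Gpx1 was 0.14 higher in polysome RNA under the Het label and 0.15 under the WT label, and Gpx4 0.16 and 0.34. Txnrd2 was at 0.29 and 0.28, but its dimmer probe set was at -0.08 and 0.05. For Txnrd1 the probe sets disagreed again: the brightest gave 0.08 under the Het label and 0.06 under the WT label, whereas the others gave 0.56 and 0.64 under the Het label and 0.54 and 0.55 under the WT label. Selenof was at 0.08 under both. Selenok was at -0.15 under the Het label and 0.06 under the WT label, and Selenos at -0.11 and 0.09. Centring each array on its median shifts all of these by -0.10 under the Het label and by -0.12 under the WT label. With that scaling, quantile normalisation or the trend subtracted, Selenok, Selenos, Selenof and the brightest Txnrd1 probe set were below 0 under the WT label, so that their direction between the fractions depends on the scaling.

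**Figure D4:**
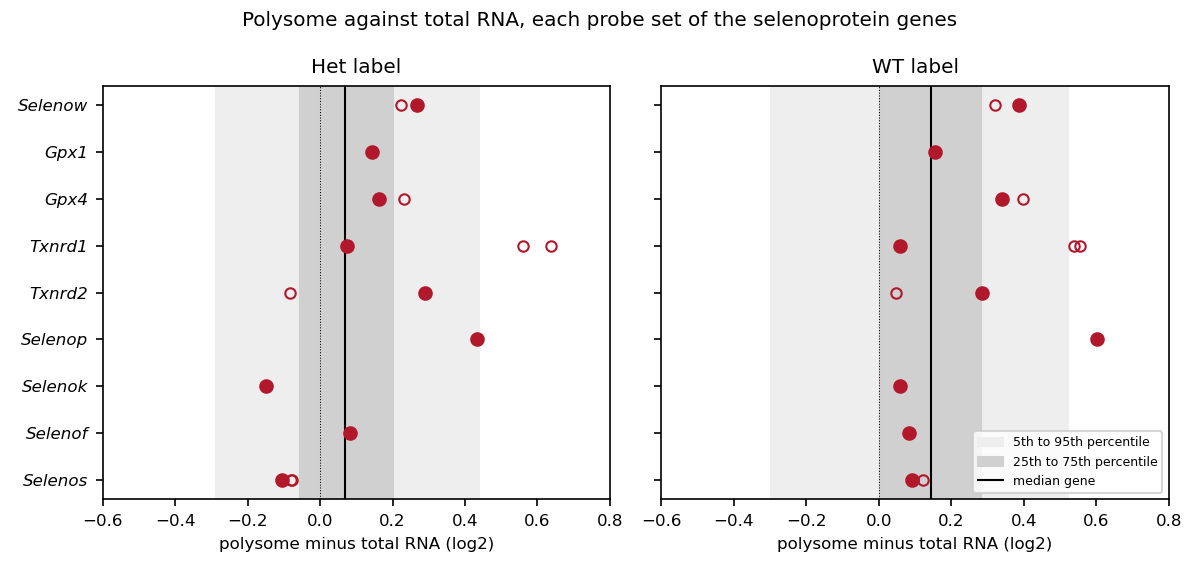
Polysome minus total RNA (horizontal axis, log2) for every probe set of the 9 genes under the Het label and under the WT label; filled points are the probe set that represents the gene, open points the others, grey bands span the 5th to 95th and the 25th to 75th percentile of named genes at or above the floor and the line is their median. Most points lie inside the bands, Selenop lies just inside the upper edge of the wider band under the Het label and beyond it under the WT label, and the Txnrd1 probe sets stand apart from each other.

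The question of the series, whether the Het label goes with another hold on ribosomes, corresponds to the difference between the last comparisons, Het minus WT. For Selenow it was -0.12, for Gpx1 -0.01, for Gpx4 -0.18, for Selenop -0.17, for Selenok -0.21, for Selenos -0.20, for Selenof 0.00, for Txnrd2 0.01 and for Txnrd1 0.02. All 9 lay within 0.22 of 0, the SD of the disagreement between probe sets of a gene, and the median gene was at -0.07 among those at or above the floor. At 2-fold 0 of 9 genes were higher or lower, as were 0% of all 12393 named genes. Selenow was lower under the Het label in both RNAs, and its difference between them was smaller than this SD. These differences use the same arrays as the comparisons above and add no independent support to them.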

How the data were processed

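RNA was extracted from sucrose gradient fractions, and amplified from cDNA by T7 polymerase with a biotin label, per the labels' protocols. The authors deposited log2 values for 22690 probe sets; per the submitters' processing notes they were made with R 3.4.3, affy 1.56.0 and RMA, which corrects background, normalises between arrays and summarises probes. The settings are not given in the sources used here. No detection calls were used, so signal over background is known only from the level, and the number of arrays, 1 per group, limits the precision.

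Samples were grouped from their titles. Probe sets were named from the platform annotation where it gives 1 symbol, manufacturer's controls left out; all 9 members had an Entrez number in the RefSeq table for GRCm38.p6, which changed 0 symbols. Of several probe sets of a gene, the brightest by mean value stands for it. Differences of log2 values were taken, and 2-fold (1 on the log2 scale) was the size rule. Promoter windows were matched by symbol, and all 9 genes matched. Named genes were the members with every probe set, Npm1, the list genes with the largest differences and any past 2-fold, the neighbours of Selenow in rank and the 5 genes most like it. The Derlin genes were named as partners of Selenok and Selenos. The members and lists were chosen with earlier results of these data known. The calculation was tested on simulated data with Python 3.11.15, numpy 2.4.6, pandas 2.3.3 and statsmodels 0.14.6. Alternatives were other scalings, other choices of probe set, other size rules and floors.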

Additional observations from a re-analysis of the deposited data

Results flagged for a closer look

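For 2 genes the difference between polysome and total RNA had opposite signs under the genotype labels. Selenok was at -0.15 under the Het label and 0.06 under the WT label, a difference of -0.21, and Selenos at -0.11 and 0.09, a difference of -0.20. With 1 array per group the difference was not tested, both sizes lie within the SD of 0.22 of the disagreement between probe sets of a gene, and with 3 of 5 alternatives the sign under the WT label turned negative as well.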

How the results depend on the processing

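Selenow kept its direction in all 5 comparisons under the 5 other scalings and probe set choices, from -2.19 to -2.0 in total RNA and from -2.26 to -2.10 in polysome RNA between genotype labels. Of 105 values recomputed for the counts, for Selenow and for the median of the other members, 98 stayed within the spread between probe sets or, for counts, within 1.5 times. Some of these could not change, since the floor at the median of all values kept every member. Differences already smaller than the spread had little room to leave it, so this share does not measure robustness. The count of members at least 2-fold different between genotype labels, 1 in each RNA, became 2 with quantile normalisation and 2 with the trend subtracted, by the addition of Gpx1. The whole series moved as well, so this gain is not read as a trait of the group. Of 12393 named genes, 109 were 2-fold lower for total RNA as deposited, 140 with quantile normalisation and 173 with the trend subtracted. For polysome RNA these numbers were 88, 97 and 118. Genes 2-fold higher numbered 20, 13 and 10 for total and 7, 7 and 5 for polysome RNA. At 1.5-fold the member count became 3 in total RNA and 2 in polysome RNA, and 1 member, Selenop, passed between fraction labels under the WT label, against 0 at 2-fold. No share of all genes at 1.5-fold is given here. Txnrd1 moved with the mean of its probe sets, to 0.02 and 0.06 between genotype labels and to 0.42 under the Het label and 0.38 under the WT label between fraction labels; its probe sets disagree. No paired analysis was possible because the labels give no replicate numbers that pair samples and each group holds 1 array. A fit with genotype label and fraction as additive terms could be made and was not run; it would treat the total and polysome arrays of a label as replicates. The floor at the median of all values removed no member. With 1 array per group, a difference between arrays and one between conditions cannot be told apart.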
